A study of Mus musculus with 8 samples.

Results

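The genes described here encode the subunits of the mitochondrial respiratory chain and of ATP synthase, complexes I to V of oxidative phosphorylation. They were taken by name from a table of 48440 genes. Protein-coding genes were kept whose symbol starts with Nduf (without the assembly factors Ndufaf), Sdha to Sdhd, Uqcr, Cox4 to Cox8, Atp5, mt-Nd, mt-Co, mt-Cytb or mt-Atp. The name matched 109 genes, of which 11 are pseudogenes, and 98 were kept. Of these, 85 lie in the nuclear genome, 38 for complex I, 4 for complex II, 8 for complex III, 18 for complex IV and 17 for complex V. The mitochondrial genome holds the other 13, with 7 for complex I, 1 for complex III, 3 for complex IV and 2 for complex V.

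Complexes I and II pass electrons from NADH and succinate to ubiquinone, complex III passes them on to cytochrome c, and complex IV (cytochrome c oxidase) hands them to oxygen. Complexes I, III and IV pump protons across the inner mitochondrial membrane, and complex V, the ATP synthase, uses the return flow to make ATP. All subunits of complex II come from nuclear genes, whereas the other complexes combine nuclear and mitochondrially encoded proteins. In the intestine, stem and progenitor cells, differentiated absorptive cells and secretory cells differ in how far they rely on this pathway, and microbial products such as short-chain fatty acids are known fuels of mitochondrial oxidation in the epithelium of the large bowel.

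The RNA came from epithelial cells sorted from the jejunum of 8 female mice carrying Sox9-EGFP, a fluorescent reporter of the transcription factor Sox9, on a C57BL/6J background. All animals were raised germ-free. In each of 4 littermate pairs (A to D), 1 animal stayed germ-free, and the other left the gnotobiotic unit for a conventional animal house at 8 to 10 weeks of age. There it received, by gavage, a slurry of feces from the conventionally raised Sox9-EGFP colony, and it was studied 2 weeks later, so microbiota and animal house cannot be told apart. Cells with a low reporter level were collected, a gate that is enriched for crypt-base stem cells, after the sort had discarded cells that stained with Annexin-V, CD31, CD45 or Sytox-blue. Each group thus has 4 libraries from 4 animals.

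The libraries held about 6209041 to 19139685 reads on an approximate scale. The cells expressed Sox9 in each library, with 252 to 517 CPM (the value scaled to a common library total) in the conventionalized and 137 to 337 CPM in the germ-free group. Of 10 leukocyte markers, 0 passed the filter of 10 CPM in at least 4 libraries, and their summed level ran from 8.01 to 28.2 CPM over all libraries. Of 8 endothelial or stromal markers, 1 passed. Their sum was 3.58 to 26.1 CPM in the conventionalized and 23.4 to 52.5 CPM in the germ-free libraries. Libraries stood apart in different ways. For germ-free pair C, the median correlation with the other germ-free libraries was 0.792, against 0.871 to 0.943 for the rest with their own groups, and it was also the shallowest library. In conventionalized pair A the 7 goblet cell markers summed to 49675 CPM, against 1397 to 8016 CPM in the other 7 libraries.

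None of the 90 respiratory chain genes that passed the filter was called different between conventionalized and germ-free animals at an adjusted p under 0.05 (limma, Benjamini-Hochberg over all 10053 genes tested), with 0 called higher and 0 called lower. Of all genes tested, 1.16% were called higher and 3.76% lower. Unadjusted p-values under 0.05 were found for 24 of the 78 nuclear genes tested, each with a higher level in the conventionalized group, and for 0 of the 12 mitochondrially encoded ones. In the background, 19.7% of genes tested had such a p with a higher level and 8.12% with a lower one. The nuclear genes had a median log2 fold change of 0.88, conventionalized over germ-free, and the mitochondrially encoded genes one of 0.33, which is near the median of 0.32 over all genes tested. A positive fold change was found in 77 of the 78 nuclear genes, the exception being Cox7a1, and in 70.2% of all genes tested.

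The nuclear genes moved as a block across libraries, and the libraries of both groups overlapped. Their summed level was 51433, 29094, 29847 and 48265 CPM in the conventionalized libraries of pairs A, B, C and D. In the germ-free libraries of the same pairs it was 29628, 32370, 9158 and 21512 CPM. The means were 39660 ± 11840 CPM (SD, n = 4) and 23167 ± 10415 CPM (SD, n = 4). Conventionalized pairs A and D were the highest, germ-free pair C was by far the lowest, and in pair B the germ-free animal had the higher sum. In bulk RNA, a change in the number of cells that express these genes and a change in the RNA per cell cannot be told apart.

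**Figure D1:**
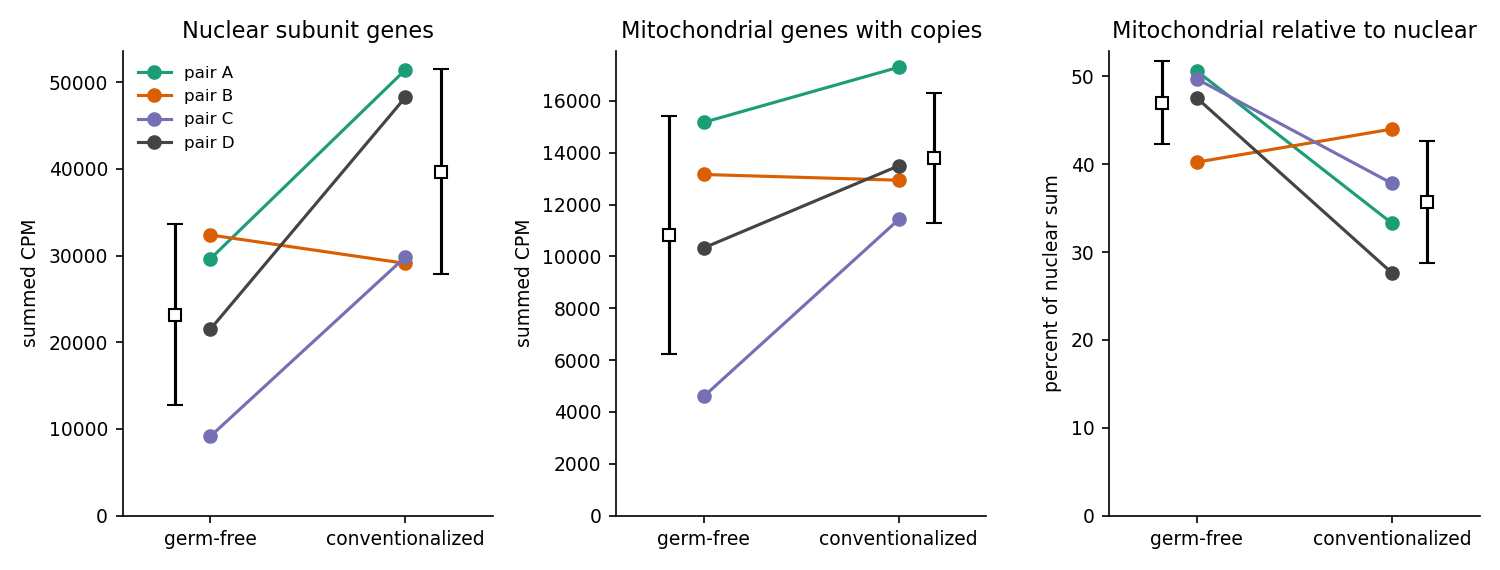
Summed CPM of the nuclear genes (left), of the mitochondrial genes with their near-identical chromosome 1 copies (middle), and the latter as a percentage of the former with its copies (right), for each germ-free and conventionalized library. Lines join littermates, and white squares with bars are the mean ± SD of 4 animals. The line of pair B runs down in the left panel, from 32370 to 29094 CPM, and those of the other pairs run up.

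The direction within littermate pairs differed between pair B and the others. The conventionalized animal had the higher level of 77 of 78 nuclear genes in pair A (all but Ndufa7), of 77 in pair C and of 77 in pair D (all but Cox7a1 in both), but of 12 in pair B. The median within-pair log2 difference of the nuclear genes was 0.67 in pair A, -0.23 in pair B, 1.76 in pair C and 1.21 in pair D, beside 0.32, 0.06, 0.35 and 0.49 over all genes tested. As a result, 12 of 78 nuclear genes were higher in the conventionalized animal of all 4 pairs, a share below that of all genes tested, 28.4%. The 2 groups did not overlap in 2 of the 78, Sdhc and Atp5g2, while 9.03% of all genes tested were higher without overlap.

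With the littermate pair in the model as a block, 2 nuclear genes were called higher, Ndufa9 (adjusted p = 0.0464 in limma) and Sdhc (adjusted p = 0.0348 in limma). In that model 8.08% of all genes tested were called higher and 5.02% lower. The members' 2 of 78 calls do not exceed that share. Unadjusted p-values under 0.05 with a higher level were, however, found for 52 of 78 nuclear genes (66.7%), beside 26.8% of all genes. Germ-free pair C was the lowest library of its group for 77 of 78 nuclear genes, and conventionalized pair A was the highest of its own for 48. In the model without the block, leaving out germ-free pair C gave a nuclear median of 0.44 beside 0.22 over all genes tested. An unadjusted p under 0.05 with a higher level was then found for 7 of 78 (8.97%), beside 12.8% of all genes. The count also fell from 24 to 0 without conventionalized pair A, to 1 without conventionalized pair D and to 5 without germ-free pair D, where 9.31%, 7.56% and 17.4% of all genes had such a p. It was 19 and 31 without conventionalized pairs C and B and 43 and 45 without germ-free pairs A and B. In the same order, 22.1%, 15.7%, 21.6% and 23.1% of all genes had such a p. With both animals of a pair left out, it was 8 without pair A, 12 without pair C and 0 without pair D. The shares of all genes were then 11.4%, 18.3% and 6.99%. Leaving out germ-free pair C and conventionalized pair A together gave a nuclear median of 0.31 beside 0.15 over all genes. It left 0 such genes, beside 9.65% of all genes. Leaving out both animals of pair B instead gave a nuclear median of 1.25 and 59 such genes (75.6%), beside 23.6% of all genes. Then 3 nuclear genes were called higher, Cox5a, Ndufa9 and Ndufc1, beside 4.05% of all genes.

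**Figure D2:**
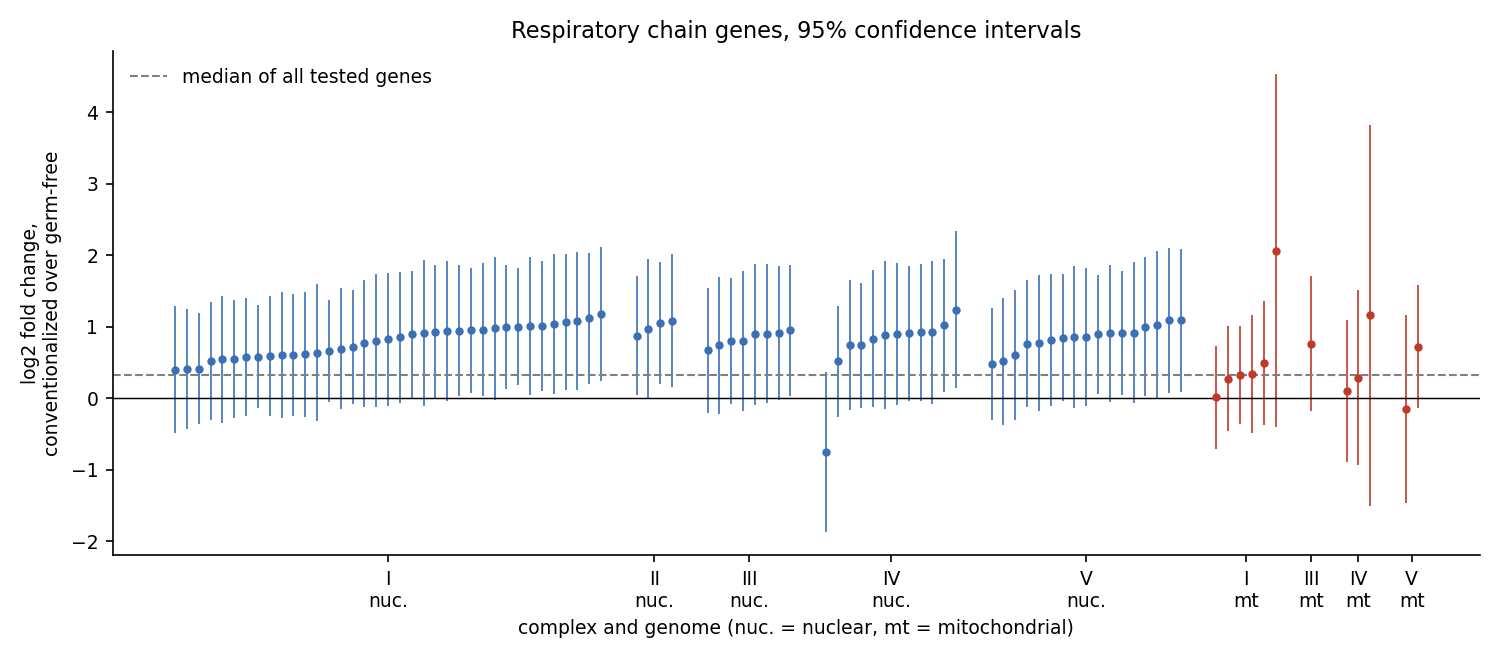
Log2 fold change, conventionalized over germ-free, of the 90 genes tested, sorted within each complex and genome, with 95% confidence intervals from limma (n = 4 animals per group). The nuclear genes (blue) lie above the dashed median of all genes tested (0.32) except Cox7a1, the lowest blue point at -0.75, and the mitochondrial genes (red) lie around it.

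Across the 8 libraries most nuclear genes rose and fell together, although not by the same amount. The correlations below do not measure how far each gene moved. The correlation of a gene with the median profile of the nuclear genes exceeded 0.9 in 76 of 78, with a median Pearson r of 0.98 and a median Spearman rho of 0.95. Each gene is itself part of that profile, and all points share the scaling of their library. Without the 2 libraries farthest from the median of the profile, conventionalized pair A and germ-free pair C, the median r was 0.96 and 59 genes exceeded 0.9. The mitochondrially encoded genes followed the nuclear profile less closely, with a median r of 0.83 over 8 libraries and 0.36 over the 6 that remain. The exceptions among the nuclear genes were Cox7a1, with an r of 0.04, and Ndufs1, with an r of 0.81.

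Promoters are shown for a few members in which a known motif of a mitochondrial gene regulator was found. Whether any motif goes with the joint movement of these genes was not tested. Promoter windows from 250 bases before to 50 bases after each annotated start were given by RefSeq (GRCm38.p6) for 69 of the 85 nuclear genes, and a motif was counted when any window of the gene held it. The NRF1 motif, searched on both strands as GCGCA and GCGC with any 1 base between them, was present in 24.6% of them, against 12.7% of the 7931 genes tested that have a promoter and 5.19% of all 27025 genes with one. The ETS motif CCGGAAG, which GABPA binds, was present in 23.2%, 22.4% and 9.93%. The YY1 motif AAGATGGCG was present in 10.1%, 4.10% and 1.64%, and the ESRRA motif TCAAGGTCA in 2.90%, 0.303% and 0.466%. Among the members, the YY1 share rests on 7 and the ESRRA share on 2 of the 69 genes. These shares are descriptions of letters in a window, and binding was not measured. In the sequences, capitals mark the NRF1 motif in Cox6a1 and Ndufb4, the ETS motif in Atp5e and the ESRRA motif in Atp5g3, the last 2 on the reverse strand. Each runs 5′ to 3′ along the gene's strand, comes from the bases before the start alone and was trimmed to the longest stretch without an annotated exon.
Cox6a1, chr5:115348982-115349129, minus strand: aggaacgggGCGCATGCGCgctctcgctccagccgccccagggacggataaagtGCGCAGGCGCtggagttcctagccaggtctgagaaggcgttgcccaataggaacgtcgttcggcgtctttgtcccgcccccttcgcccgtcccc
Ndufb4, chr16:37654454-37654618, minus strand: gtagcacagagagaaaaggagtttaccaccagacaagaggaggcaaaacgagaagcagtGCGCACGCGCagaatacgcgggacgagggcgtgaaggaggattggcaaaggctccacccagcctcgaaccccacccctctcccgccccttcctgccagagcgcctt
Atp5e, chr2:174464106-174464351, minus strand: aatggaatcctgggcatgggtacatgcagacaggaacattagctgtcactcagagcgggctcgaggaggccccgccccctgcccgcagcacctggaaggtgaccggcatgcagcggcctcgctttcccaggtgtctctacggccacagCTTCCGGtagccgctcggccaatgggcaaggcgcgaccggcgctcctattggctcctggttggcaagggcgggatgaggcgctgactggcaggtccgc
Atp5g3, chr2:73911327-73911576, minus strand: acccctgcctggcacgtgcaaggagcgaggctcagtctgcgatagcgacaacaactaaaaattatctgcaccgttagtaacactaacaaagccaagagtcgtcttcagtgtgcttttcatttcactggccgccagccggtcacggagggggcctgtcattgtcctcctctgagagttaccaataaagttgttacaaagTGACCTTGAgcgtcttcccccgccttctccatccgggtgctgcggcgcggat

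Complex I takes electrons from NADH, and its 37 nuclear genes tested had a median log2 fold change of 0.82, with 13 at an unadjusted p under 0.05 and a range from 0.40 to 1.18. All 13 were higher in the conventionalized group, beside 19.7% of all genes tested with such a p and a higher level. Ndufa9 (chromosome 6, 126821721 to 126849136 in GRCm38), a subunit at the junction of the membrane and peripheral arms, had the largest fold change of the complex. Its levels were 576, 318, 310 and 503 CPM in conventionalized pairs A to D and 256, 330, 78.6 and 161 CPM in the germ-free ones. The groups overlap because germ-free pair B lies above conventionalized pairs B and C. Its fold change was 2.27-fold (log2 1.18 ± 0.43 SE, adjusted p = 0.122 in limma), the lowest adjusted p of all nuclear genes.

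The flavoprotein Ndufv1, which binds NADH, had 693, 405, 339 and 691 CPM in the conventionalized and 330, 384, 129 and 338 CPM in the germ-free libraries. It was higher in the conventionalized animal of every pair, although the germ-free level of pair B exceeded the conventionalized level of pair C (log2 0.89 ± 0.41 SE, adjusted p = 0.179 in limma). Its partner Ndufv2 had a log2 fold change of 1.07 and was likewise higher in 4 of 4 pairs. For 4 further core subunits, the log2 fold changes were 0.72 for Ndufs1, 0.77 for Ndufs3, 0.91 for Ndufs7 and 0.85 for Ndufs8. Among these 4, Ndufs1 alone was higher in all 4 pairs, and in pair B it had 199.7 CPM in the conventionalized and 146 CPM in the germ-free animal.

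At the low end of complex I was Ndufs5, an accessory subunit, with a log2 fold change of 0.40 ± 0.41 (SE, adjusted p = 0.519 in limma). Its conventionalized levels of 182, 83.4, 103 and 163 CPM overlapped the germ-free levels of 151, 156, 44.5 and 79.4 CPM. Ndufab1, the mitochondrial acyl carrier protein that is also a complex I subunit, had a log2 fold change of 1.01. Ndufc2 and Ndufc1, small membrane-arm subunits, had 0.998 and 1.117, and Ndufb5, also of the membrane arm, had 0.995. Ndufa4 carries a complex I name but is now known as a complex IV subunit, and its log2 fold change was 0.94. Counting it in complex IV gave medians of 0.82 for complex I and 0.90 for complex IV.

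Complex II, succinate dehydrogenase, links the tricarboxylic acid cycle to the chain, and its 4 genes had the highest median of the complexes, 1.01, although differences between complexes were not tested. Sdhc (chromosome 1, 171127165 to 171150603), a membrane anchor, had 350, 224, 168 and 306 CPM in the conventionalized libraries and 149, 165, 54.0 and 160 CPM in the germ-free ones. The lowest conventionalized level, in pair C, lay just above the highest germ-free level, in pair B. It was 2.08-fold higher (log2 1.05 ± 0.40 SE, adjusted p = 0.128 in limma), and 0.0348 with the pair as a block.

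Sdhd, the other anchor, had 929, 449, 447 and 720 CPM against 398, 453, 131 and 282 CPM. Pair B was nearly level and the other pairs differed in the same direction (log2 1.08 ± 0.43 SE, adjusted p = 0.142 in limma). The flavoprotein Sdha, which oxidizes succinate, had 1333, 859, 652 and 1010 CPM against 560, 685, 292 and 596 CPM, with a log2 fold change of 0.87. It was higher in the conventionalized animal of each pair, and the groups overlapped only through germ-free pair B and conventionalized pair C. The iron-sulfur protein Sdhb had a log2 fold change of 0.97 and was higher in 3 of 4 pairs.

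Complex III, the cytochrome bc1 complex, had a median of 0.85 over 8 nuclear genes, with values from 0.67 to 0.95. Of all genes tested, 19.7% had an unadjusted p under 0.05 and a higher level, and 1 of these 8 had. That gene was Uqcrh, the hinge protein that contacts cytochrome c1, with 497, 290, 317 and 522 CPM against 316, 325, 87.9 and 189 CPM (log2 0.95 ± 0.43 SE, adjusted p = 0.17 in limma). In pair B its germ-free level was above the conventionalized one. The core protein Uqcrc1 had 2115, 1211, 1051 and 1744 CPM against 1012, 1184, 329 and 999 CPM and was higher in 4 of 4 pairs, though narrowly in pair B. Its log2 fold change was 0.89, that of the other core protein, Uqcrc2, was 0.80, and that of the Rieske iron-sulfur protein Uqcrfs1 was 0.67. The small subunits Uqcr10, Uqcrq and Uqcrb had 0.92, 0.91 and 0.74. Cytochrome c1 itself, Cyc1, whose symbol lies outside the name rule, had a log2 fold change of 1.20 ± 0.48 (SE, adjusted p = 0.14 in limma). The soluble carrier cytochrome c, Cycs, had one of 0.47.

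In complex IV, 12 of 18 nuclear genes passed the filter, with a median of 0.89 and 2 at an unadjusted p under 0.05, Cox5a and Cox7b. Such a p with a higher level was found in 19.7% of all genes tested. Cox5a, an early-assembling core partner, had the largest fold change of all nuclear genes, 2.36-fold (log2 1.24 ± 0.51 SE, adjusted p = 0.149 in limma). Its levels were 638, 305, 329 and 518 CPM in the conventionalized and 275, 348, 54.5 and 202 CPM in the germ-free libraries. Germ-free pair B again lay above conventionalized pairs B and C. The ubiquitous forms Cox4i1, Cox5b, Cox6a1, Cox6b1, Cox6c, Cox7c and Cox8a had log2 fold changes between 0.74 and 0.92. Cox6a1, whose promoter holds the NRF1 motif at a pair of places, had 0.92.

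ATP synthase, complex V, had a median of 0.86 over 17 nuclear genes. An unadjusted p under 0.05 was found for 5 of them, all higher, beside 19.7% of all genes tested. The catalytic subunits of ATP synthase were among the most abundant members. Atp5b, the beta subunit, had 5817, 3476, 2997 and 5212 CPM in the conventionalized libraries and 2611, 3069, 876 and 2587 CPM in the germ-free ones. Atp5a1, the alpha subunit, had 3422, 2148, 1624 and 2993 CPM against 1507, 1908, 503 and 1208 CPM. Both were higher in the conventionalized animal of every pair, with log2 fold changes of 1.03 ± 0.48 (SE, adjusted p = 0.18 in limma) and 1.09 ± 0.47 (SE, adjusted p = 0.159 in limma), and in both the groups overlapped through pair C of the conventionalized group. Atp5o, the oligomycin-sensitivity protein of the stalk, had 1.09, Atp5c1, the gamma subunit, 0.76, and Atp5f1, the b subunit, 0.82. Atp5e, the epsilon subunit, had 0.91 and was higher in 4 of 4 pairs. Lowest was Atp5mpl, a small membrane subunit, with 0.48. The inhibitor of ATP synthase carries a symbol that the name rule does not take and was not analysed here.

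The most uneven nuclear gene was Cox7a1, the form of subunit 7a known from heart and skeletal muscle (chromosome 7, 30184144 to 30186078). Its levels were 49.2, 5.45, 15.3 and 18.1 CPM in the conventionalized and 46.6, 24.0, 31.2 and 18.7 CPM in the germ-free libraries. The conventionalized animals of pairs B and C had the lower levels and pair A had high levels in both. The fold change was 0.593-fold (log2 -0.75 ± 0.52 SE, adjusted p = 0.331 in limma). Without conventionalized pair A and germ-free pair C together, it was called lower (log2 -1.22, adjusted p = 0.0281 in limma), as were 4.24% of all genes tested then.

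Set against Cox7a2, the form found in most tissues, Cox7a1 was 11.4%, 2.28%, 5.34% and 3.997% of Cox7a2 in CPM in the conventionalized libraries. In the germ-free libraries it was 14.3%, 8.38%, 31.9% and 9.95%. The share was lower in the conventionalized animal of 4 of 4 pairs, by 1.53 on the log2 scale, and the groups overlapped through pair A (exact permutation test, two-sided, p = 0.0857, adjusted p = 0.143 over 5 ratios). Ratios within a library do not depend on a scaling that all genes of the library share. They were chosen after the data were seen.

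The genes Atp5g1, Atp5g2 and Atp5g3 encode the same mature c subunit of the ATP synthase ring, and their fold changes were 0.92, 0.89 and 0.52 on the log2 scale. Atp5g1 was 101%, 104%, 111% and 110% of Atp5g3 in CPM in the conventionalized libraries and 83.5%, 89.1%, 59.9% and 95.04% in the germ-free ones. The groups did not overlap, with a log2 difference of 0.40 in the ratio. The exact two-sided permutation p was 0.0286, the smallest that 70 assignments allow, and 0.143 after adjustment over the 5 ratios, so the difference does not pass the correction. Atp5g2 was 21.8%, 31.2%, 27.0% and 29.8% of Atp5g3 against 19.8%, 20.9%, 17.2% and 26.8%, higher in 4 of 4 pairs with overlapping groups (exact permutation p = 0.0571). For Atp5g2, 24.5% of the signal of the gene and its identical processed pseudogene Gm10175 was assigned to the copy. Atp5g3 is the gene whose promoter is printed above with the ESRRA motif.

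**Figure D3:**
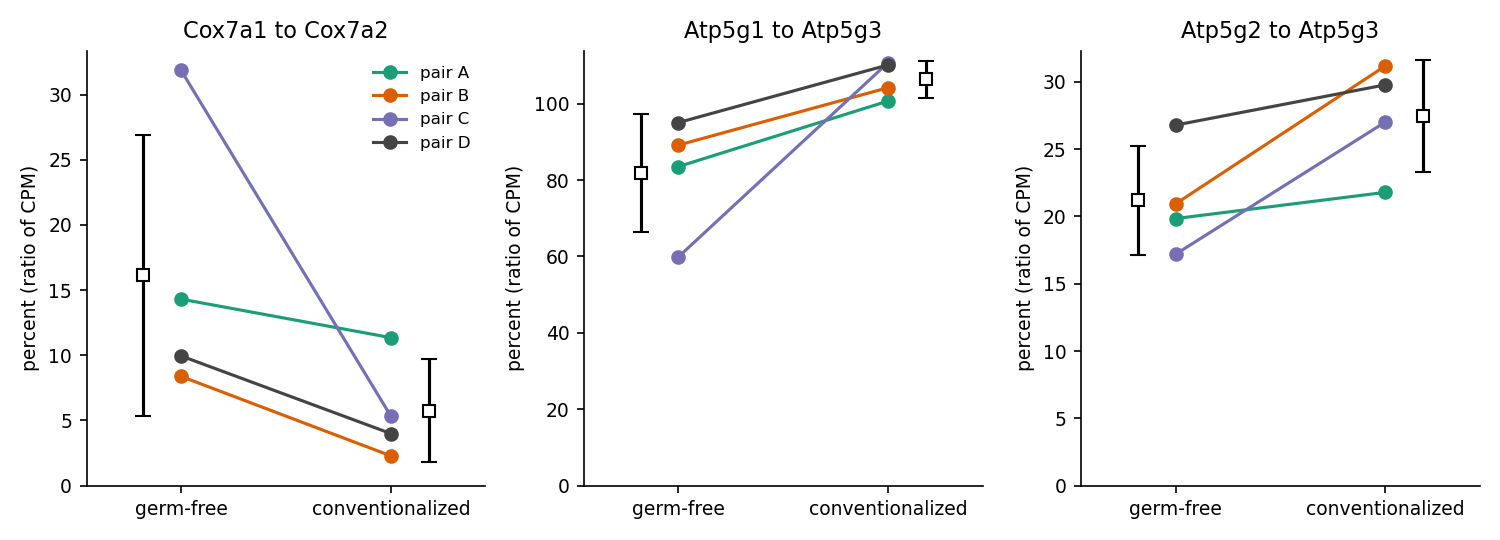
Ratios of isoform genes within each library, as percent of CPM, for Cox7a1 to Cox7a2 (left), Atp5g1 to Atp5g3 (middle) and Atp5g2 to Atp5g3 (right), germ-free and conventionalized. Lines join littermates, and white squares with bars are the mean ± SD of 4 animals. In the middle panel the conventionalized libraries, 101% to 111%, lie above the germ-free ones, 59.9% to 95.04%.

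Tissue-restricted forms were near the floor. Per kilobase of transcript, the mean level over the 8 libraries was 0.408 CPM for Cox4i2 beside 1637 for Cox4i1, 0.0235 for Cox6a2 beside 1662 for Cox6a1, and 0.144 for Cox8b beside 1352 for Cox8a. Cox7b2 (1.03 beside 239 for Cox7b), Cox8c (1.01) and Ndufa4l2 (0.132 beside 626 for Ndufa4) were similarly low. None of these was tested. Cox6b2, known from testis, was the best detected untested form, with 9.71, 8.10, 10.8 and 18.6 CPM in the conventionalized and 7.15, 4.75, 1.01 and 4.96 CPM in the germ-free libraries. Its share of Cox6b1 was not higher in every pair (3 of 4, exact permutation p = 0.114).

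Of the mitochondrially encoded genes, mt-Cytb, the cytochrome b of complex III, had 2594, 2001, 1640 and 2337 CPM in the conventionalized and 1881, 1677, 571 and 1324 CPM in the germ-free libraries. It was higher in the conventionalized animal of each pair, with a log2 fold change of 0.76 ± 0.44 (SE, adjusted p = 0.249 in limma). By contrast mt-Co1, the catalytic subunit of complex IV, had 2303, 1865, 1410 and 696 CPM against 1828, 1666, 721 and 1439 CPM. Its lowest library was conventionalized pair D, where most nuclear genes were high, and its log2 fold change was 0.10 ± 0.46 (SE). The complex I genes mt-Nd1, mt-Nd2, mt-Nd4 and mt-Nd5 had log2 fold changes of 0.49, 0.27, 0.34 and 0.33, and mt-Nd6, the only one of the 13 on the light strand, had 0.01. mt-Atp8, a peripheral subunit of ATP synthase, had 0.72 and was higher in 4 of 4 pairs.

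For 6 of the 13 mitochondrial genes, part of the signal was assigned to unprocessed pseudogenes on chromosome 1 that match them with 99.7% to 100% identity over the aligned bases. The share on the copy was 97.5% for mt-Co2 (copy Gm28661), 94.5% for mt-Nd4l (Gm10222) and 90.6% for mt-Co3 (Gm28437). It was 67.4% for mt-Nd3 (Gm28438), 64.9% for mt-Atp6 (Gm10925) and 38.8% for mt-Co1 (Gm29216). Reads from such identical stretches cannot be assigned to one place or the other, so the values of these genes alone are uncertain. For mt-Co2 the gene alone had 26.4, 31.0, 44.7 and 21.5 CPM in the conventionalized libraries and 61.8, 71.8, 0 and 14.4 CPM in the germ-free ones. Summed with its copy it had 1776, 1303, 1260 and 1784 CPM against 1666, 1370, 490 and 1162 CPM, and its log2 fold change went from 1.16 ± 1.22 to 0.50 ± 0.43 (SE).

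Summing also moved mt-Nd3 from 2.07 to 0.44 and mt-Atp6 from -0.15 to 0.63 on the log2 scale, and the mitochondrial median from 0.33 to 0.49. mt-Nd4l, which did not pass the filter alone, had 0.74 ± 0.31 with its copy (SE, adjusted p = 0.156 in limma). None of the summed genes was called. Among nuclear genes, Ndufb4 shared most signal with a copy, 80.7% on its processed pseudogene Ndufb4c, and Atp5l had 38.1% on Gm10221. Their log2 fold changes with the copies were 0.81 and 0.66, and 0.66 and 0.61 without.

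**Figure D4:**
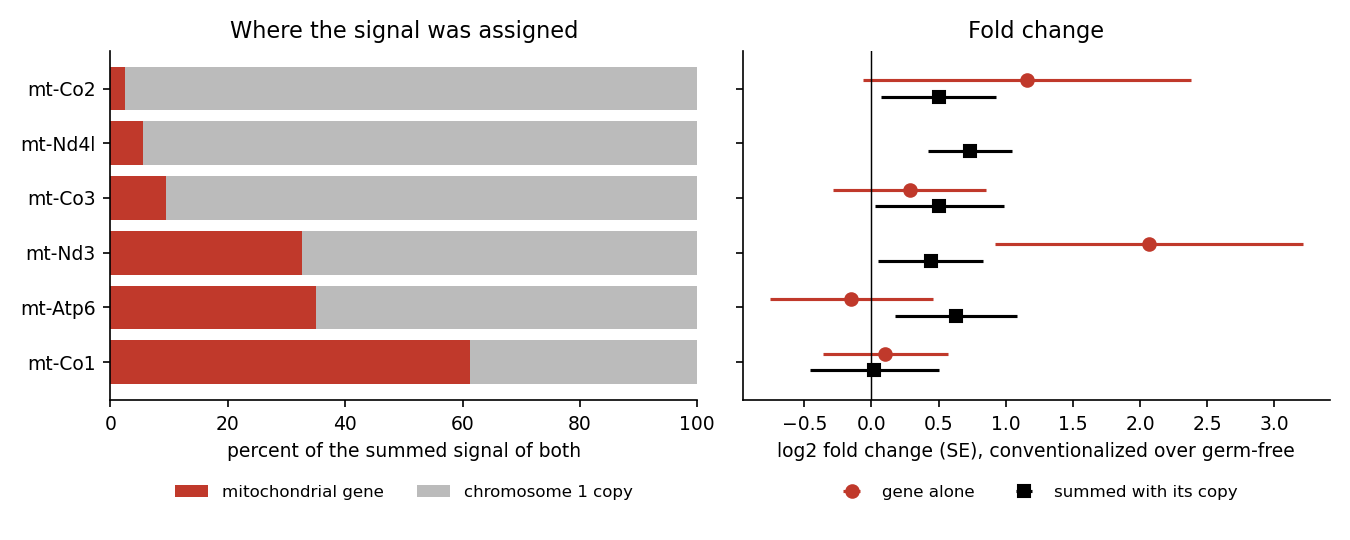
Left, the share of the summed signal assigned to the mitochondrial gene (red) and to its chromosome 1 copy (grey), over 8 libraries. Right, the log2 fold change, conventionalized over germ-free, with its SE for the gene alone (red; mt-Nd4l was not tested alone) and summed with its copy (black). The summed values lie between 0.02 (mt-Co1) and 0.74 (mt-Nd4l), whereas the genes alone run from -0.15 to 2.07.

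Relative to the nuclear genes, the mitochondrial genes were less abundant in most conventionalized libraries. With all copies counted on both sides, the mitochondrial sum was 33.3%, 44.0%, 37.8% and 27.6% of the nuclear sum in the conventionalized and 50.6%, 40.2%, 49.7% and 47.5% in the germ-free libraries. The means were 35.7% ± 6.94 and 47.0% ± 4.70 (SD, n = 4). The share was lower in the conventionalized animal of pairs A, C and D and higher in pair B, and the groups overlapped. Without copies the shares were 15.7%, 22.9%, 16.3% and 12.02% against 24.2%, 20.0%, 24.0% and 22.7%. As the members were chosen as a set, no test was made of these sums. In absolute terms the mitochondrial sum with copies was 17301, 12942, 11427 and 13498 CPM against 15174, 13162, 4598 and 10329 CPM, again lowest in germ-free pair C. Without that library the mitochondrial median log2 fold change was -0.002, with 6 of 12 genes positive.

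For most genes that build and feed the chain, list medians lay close to those of the subunits. Assembly factors had a median log2 fold change of 0.78 for complex I (16 of 17 tested, 8 at an unadjusted p under 0.05, 0 called) and of 0.67 for complexes II to V (32 of 35 tested, 9, 0 called). The mitochondrial ribosome, which translates the mitochondrially encoded subunits, had 0.87 for its large subunit (49 genes, 29 at an unadjusted p under 0.05, 0 called) and 0.84 for its small subunit (29 genes, 18, 0 called). Mitochondrial import had 0.82 (28 genes, 1 called higher), and upkeep and transcription of mitochondrial DNA had 0.86 (23 of 25 tested, 0 called). The tricarboxylic acid cycle had 0.71 (14 genes, 0 called), and pyruvate entry to mitochondria had 0.31 (12 genes, 0 called), near the median of all genes. None of the genes tested in these lists was called lower without the block. Of all genes tested, 19.7% had an unadjusted p under 0.05 with a higher level, and 1.16% were called higher.

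With the block, calls were made for 10 of 49 large and 6 of 29 small mitochondrial ribosomal genes, 7 of 23 for mitochondrial DNA upkeep and 6 of 28 for import, all higher. The subunits' own 2 of 78 stand beside these and the 8.08% of all genes. Single genes named by the lowest p were Tfam, which packages and transcribes mitochondrial DNA, the helicase Twnk and the import factor Timm21. Tfam had 148, 105, 97.9 and 142 CPM in the conventionalized and 67.1, 86.5, 19.6 and 40.2 CPM in the germ-free libraries, without overlap. Its log2 fold change was 1.38 ± 0.40 (SE, adjusted p = 0.0661 in limma, 0.023 with the block). Timm21, which also takes part in complex IV assembly, was called higher (log2 1.31 ± 0.34 SE, adjusted p = 0.0416 in limma), a call kept without germ-free pair B or without germ-free pair C but lost without any other single library (adjusted p from 0.0812 to 0.144). Twnk had 1.14 ± 0.35 (SE, adjusted p = 0.078 in limma, 0.0193 with the block).

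Among regulators of mitochondrial biogenesis, 10 of 12 genes were tested, all with a positive fold change, 5 with an unadjusted p under 0.05 and 0 called. In the background, 19.7% of genes tested had such a p with a higher level. Esrra, a nuclear receptor of energy metabolism genes, had 107, 55.5, 49.8 and 58.8 CPM against 33.3, 32.1, 23.2 and 38.6 CPM, without overlap (log2 1.03 ± 0.30 SE, adjusted p = 0.0676 in limma, 0.0329 with the block). Its coactivator Ppargc1a had a log2 fold change of 1.17 (0.0491 with the block, adjusted p in limma), Nrf1 had 0.83 (0.0475 with the block) and Gabpa had 0.61 (0.154 with the block). Myc had 1.24 ± 0.54 (SE, adjusted p = 0.163 in limma).

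Not all genes next to the chain had the same sign. The lactate and pyruvate carrier Slc16a1 was called higher, with 171, 120.2, 69.7 and 124 CPM against 46.7, 64.1, 17.1 and 41.7 CPM (log2 1.58 ± 0.40 SE, adjusted p = 0.0359 in limma). That call too was kept only without germ-free pair B or without germ-free pair C, and the adjusted p was 0.053 to 0.12 without any other single library. Slc16a3, a carrier known for lactate export, had 7.04, 2.10, 2.95 and 2.79 CPM against 13.9, 10.5, 29.7 and 14.7 CPM (log2 -2.09 ± 0.48 SE, adjusted p = 0.0245 in limma). It passed the filter of 10 CPM in at least 4 libraries only through the germ-free group, where it is high, so that neither its p nor the gap between its groups is independent support for a difference. Over the glycolysis and lactate list, with 17 of 18 genes tested, the median was 0.40, 1 was called higher and 1, Slc16a3, lower. Pdk4, a kinase that shuts off pyruvate dehydrogenase, had 10.5, 3.37, 8.41 and 11.3 CPM against 23.2, 11.5, 31.8 and 39.2 CPM (log2 -1.59 ± 0.45 SE, adjusted p = 0.0603 in limma, 0.0141 with the block). Pdk4 too passed the filter only through the germ-free group, as conventionalized pairs B and C lay under 10 CPM. Its p is therefore not independent support for a difference. The ADP/ATP carrier Slc25a4 had a log2 fold change of -0.97 ± 0.31 (SE, adjusted p = 0.0894 in limma), the only negative one of 19 carriers and subunits outside the name rule.

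**Figure D5:**
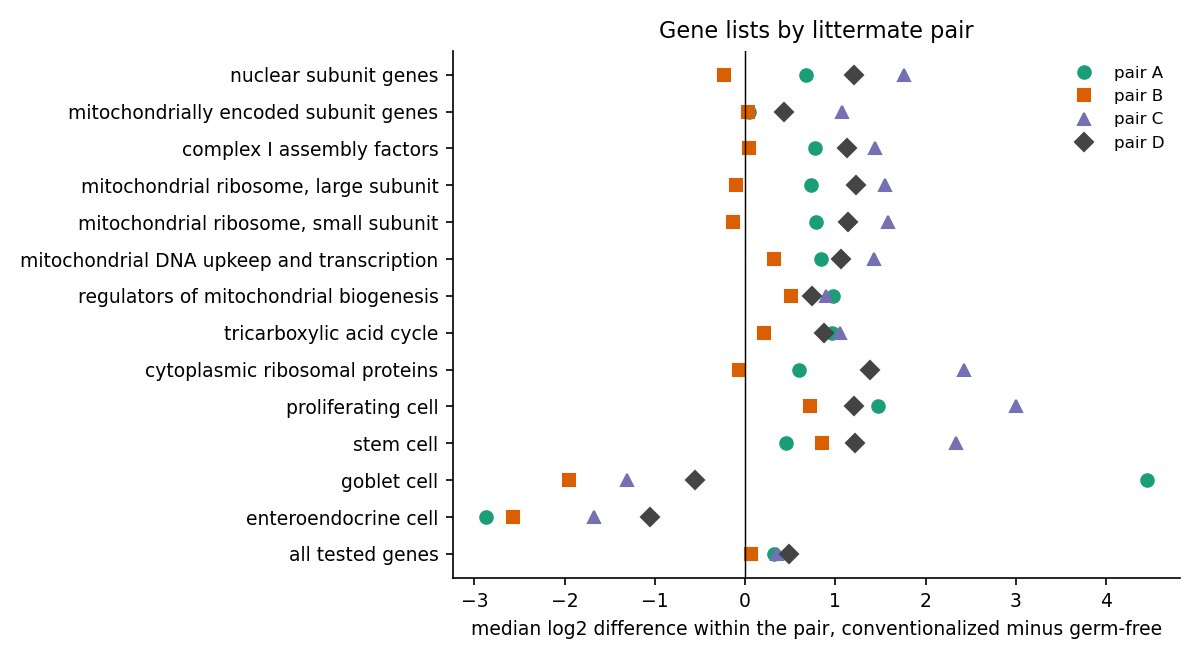
Median within-pair log2 difference, conventionalized minus germ-free, for each gene list and littermate pair (marker and colour). Pair C is the highest for the nuclear subunit genes (1.76), the cytoplasmic ribosomal proteins (2.43) and the proliferating cell markers (2.999). Among the mitochondrial lists plotted, pair B runs from -0.23 for the nuclear subunit genes to 0.51 for the regulators of mitochondrial biogenesis, with 0.32 for mitochondrial DNA upkeep, and is above 0 for the stem (0.85) and proliferating cell (0.72) markers. For the goblet cell markers, pair A stands at 4.45 and the other pairs are below 0.

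Several other measures differed between the groups or libraries beside the nuclear genes. The 10 proliferating cell markers summed to 1566 to 2363 CPM in the conventionalized and 219 to 1192 CPM in the germ-free libraries, without overlap, and 4 of 10 were called higher. Stem cell markers summed to 4976 to 9806 against 931 to 5236 CPM, with 1 of 10 called higher. Enteroendocrine markers, of hormone-secreting cells, summed to 7474 to 19224 against 32704 to 75469 CPM, with 8 of 10 called lower. Goblet cell markers, of mucus-secreting cells, were at 49675, 1397, 2322 and 5843 CPM in the conventionalized and 3798, 7116, 5721 and 8016 CPM in the germ-free libraries, with 0 of 7 called. Their high library, conventionalized pair A, is the one that was highest of its group for 48 of 78 nuclear genes and without which 0 of them had an unadjusted p under 0.05 with a higher level. Without conventionalized pair D, where goblet cell markers summed to 5843 CPM, 1 of 78 nuclear genes had such a p. Enterocyte markers summed to 1004 to 3987 against 2159 to 5457 CPM, with 3 of 10 called lower. The list was mixed, with 5 positive and 5 negative fold changes and a median log2 of -0.11. Paneth cell markers summed to 6370 to 9622 against 2627 to 15663 CPM, with 1 of 7 called higher. Of all genes tested, 1.16% were called higher and 3.76% lower. No marker of these 6 lists was at 0 in all libraries. The 76 cytoplasmic ribosomal protein genes tested had a median of 1.09, above that of the subunits, with 0 called. In pair B the stem and proliferating markers were higher in the conventionalized animal while the nuclear subunits were not. The part of cell composition in the subunits' fold changes was not tested.

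Transcript length moved with the fold change too. Over all genes tested the median log2 fold change was 0.69 for transcripts of up to 1000 bases (897 genes), 0.49 from 1000 to 2000 and 0.33 from 2000 to 4000. Above 4000 bases it was 0.096 (2846 genes). The nuclear subunit genes are short, with a median of 849.5 bases against 2795 over all genes tested. Their medians in those ranges were 0.85 (48 genes), 0.89 (22 genes), 1.01 (7 genes) and 0.92 (1 gene). With values centred in each library on transcript length and GC content, the nuclear median was 0.32 beside 0.08 over all genes, and 69 of 78 were positive. Complex II remained the highest, with 0.56, and the mitochondrial median was -0.09. With scaling on library size alone the nuclear median was 0.64 beside 0.09 over all genes, so the median of all genes itself depends on the scaling.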

How the data were processed

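RNA was measured in 8 libraries, 4 animals per group, made from 10 ng of total RNA with SMARTer Ultra Low Input and Nextera XT kits, per the labels' protocols. The build mm10 and the tools STAR 2.4.2a, Trimmomatic 0.36, DESeq2 1.12.4 and R 3.3.1 are named in the submitters' processing notes. The table deposited by the authors holds a normalized signal. In genes with 1 transcript it behaves as estimated counts divided by a size factor of the library. Genes with more than 1 transcript mostly did not follow that scale. Whether a further factor applies to them, and whether it differs between libraries, was not tested. This was read from the values, of which 99.9% were whole multiples of a library step (tolerance 0.02, low values) in genes with 1 transcript and 30.4% in the others. The planned test for continuous values was therefore used and no count test was run.

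Symbols came from GENCODE M21 (48058 of 48440 genes matched). CPM were computed with TMM scaling (log ratios trimmed by 0.3, intensities by 0.05). The test ran on log2(CPM + 0.5) of the 10053 genes that reached 10 CPM in 4 or more libraries, on which scale fold changes of low genes are understated. Groups were compared with limma 3.58.1 (R 4.3.3, trend and robust), two-sided, with Benjamini-Hochberg adjustment over all genes and calls under 0.05. All adjusted p-values are limma's unless a permutation is named, and n is 4 animals per group. Near-identical copies were found with blastn 2.17.0+ (at least 98% identity over at least 100 bases). The reads carry no molecular identifiers. Fits were tested on simulated data.

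The labels name the littermate pairs, so the design pairs the libraries. Within-pair correlations of deviations from the group means were 0.14, -0.16, 0.31 and -0.01 for pairs A to D. The littermate pair as a block was an alternative. Members and gene lists were chosen with earlier results of these data known. Genes were named by rule: all mitochondrial members, per complex the 4 with the lowest p and the extremes of fold change, core subunits, isoform families, 3 per pathway list by p, and regulators. Of the core subunits, 1 is not reported here by name. Ndufa7, Ndufb4 and Atp5l were named after their values were seen. Alternatives covered scaling, filter, pseudocount, test, length and GC content, the block, and libraries or pairs left out. Copies summed and the isoform ratios were added after the data were seen.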

Additional observations from a re-analysis of the deposited data

Results flagged for a closer look

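Among 132 combinations that were checked, each of a gene or a summed gene set with a group of 4 libraries, 1 had a library far from the rest of its group. The Sdhc level of the germ-free library of pair C was 54.032 CPM, below the range of 148.81 to 165.48 CPM of the other germ-free libraries. The gap was 0.85 of the group's range, above the critical value of Dixon's test at the 95% level. At this level chance gives such a flag in about 1 of 20 groups, and the other genes and sums checked gave none.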

How the results depend on the processing

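The counts of 0 genes called higher and 0 lower held in most alternatives, including each library left out in turn (0 to 0 in both directions). The number called higher was 1 with sample weights (Sdhc), 2 with the littermate pair as a replicate block, 4 with the block and centring on length and GC content (Ndufa9, Atp5a1, Ndufv1, Sdhc), and 3 without littermate pair B. Of all genes tested, 7.61%, 8.08%, 6.03% and 4.05% were called higher in these settings. The number called lower was 1 without conventionalized pair A and germ-free pair C, and 2 with the block and centring (mt-Atp6, Cox7a1). There, 4.24% and 7.97% of all genes tested were called lower. Added to the main fit without centring, the block changed no call of a subunit gene other than Ndufa9 and Sdhc. The nuclear median ran from 0.44 to 1.04 with 1 library left out, lowest without germ-free pair C, and the mitochondrial median from -0.002 to 0.52.

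Signs that turned were mostly of mitochondrial genes, none of them called, and the cause was not tested. With centring on length and GC content, with or without the block, log2 fold changes were -0.074 for mt-Nd1, -0.23 for mt-Nd2, -0.40 for mt-Co1, -0.34 for mt-Co3, -0.10 for mt-Nd4, -0.077 for mt-Nd5, -0.58 for mt-Nd6, -0.22 for Ndufs5, -0.33 for Atp5mpl, -0.093 for Atp5g3 and -0.023 for Cox7a2l. Library size alone gave -0.13 for mt-Co1 and -0.22 for mt-Nd6. Sample weights gave -0.030 for mt-Nd2, -0.29 for mt-Co1, -0.82 for mt-Co2, -0.35 for mt-Co3, -0.0063 for mt-Nd3, -0.21 for mt-Nd6 and -0.022 for Ndufs5. Without both libraries the values were -0.14 for mt-Nd2, -0.42 for mt-Co1, -0.37 for mt-Co2, -0.26 for mt-Co3, -0.087 for mt-Nd4, -0.41 for mt-Nd6, -0.14 for Ndufs5 and -0.021 for Cycs. For mt-Atp6 the value was 0.079 without pair A and 0.63 summed with its copy. For mt-Nd6 it was -0.013 without pair B, and without pair C it was -0.14, beside -0.17 for mt-Co1 and -0.61 for mt-Co2. With 1 library left out, values ran from -0.78 to 0.26 for mt-Atp6, -0.19 to 0.43 for mt-Co1, -0.42 to 1.94 for mt-Co2, -0.30 to 0.71 for mt-Co3, -0.016 to 0.49 for mt-Nd2 and -0.23 to 0.24 for mt-Nd6.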
